A study of Homo sapiens with 30 samples.

Results

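OPM2, a human multiple myeloma cell line, was compared after 24 h in 100 nM dBRD9-A and after the same time in DMSO, its solvent, with 3 sequenced libraries in each group. These are the 6 libraries whose titles begin with the line and the agent, of 30 samples listed for the series. No allele or further agent is named for either group, and all cultures were grown in RPMI-1640 medium with fetal bovine serum. A further 6 libraries of H929, another myeloma line given the same agents, entered the fit of the spread and the test of whether the lines responded differently. The other 18 samples were not analysed here. OPM2 is 1 line from 1 donor, and no label states whether its replicates were separate cultures. The p-values therefore rest on the differences among these libraries, and those may be technical.

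BRD9 is a bromodomain protein of the non-canonical BAF complex, a chromatin remodeller of the SWI/SNF family that lacks several subunits of canonical BAF and carries GLTSCR1 or GLTSCR1L instead. dBRD9-A is a degrader: it binds BRD9 and recruits it to cereblon (CRBN), the substrate receptor of a ubiquitin ligase, so that the protein is destroyed while its gene is left intact. Myeloma cells are malignant plasma cells, which secrete large amounts of antibody and depend on high ribosome output and on the transcription factors IRF4 and MYC. OPM2 carries the translocation t(4;14), which places FGFR3 and WHSC1 under immunoglobulin enhancers.

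Values below are CPM, counts scaled to a common library size with the TMM factors of edgeR, with 1 RefSeq transcript kept for each gene symbol. A change is the log2 ratio of dBRD9-A to DMSO with its standard error (±, SE), from edgeR's quasi-likelihood test on the counts. After a mean CPM, ± instead gives the SD over the libraries of that group. A gene is said to have risen or fallen where its Benjamini-Hochberg adjusted p over all genes was under 0.05. CPM values compare 1 gene between libraries and are not scaled to transcript length. The DMSO libraries held 62661302, 70314742 and 76600945 counts and the dBRD9-A libraries 62009396, 24524193 and 61036784, so that dBRD9-A replicate 2 was the shallowest. In bulk RNA, fewer cells with a transcript and less transcript per cell cannot be told apart.

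One treated library, dBRD9-A replicate 2, differed from its group mates far more than any other. Over 7845 well-counted genes, its log2 deviations from its group mates had an SD of 0.770, against 0.099 to 0.123 for the DMSO libraries and 0.365 and 0.431 for treated replicates 1 and 3, whose mates include replicate 2. The deviation followed the GC content of the transcripts: in the fifth of genes with the lowest GC content its median was 0.52 above the group mates, and in the fifth with the highest it was -0.958. Across 7811 genes, the Spearman correlation of the log2 change with GC content was -0.40 with all libraries and -0.01 without this library, with points that share libraries and depth. Results are therefore given with all libraries, and also without replicate 2 where that ended or made a call of a named gene, turned its direction or moved its change over 1.5-fold.

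**Figure D1:**
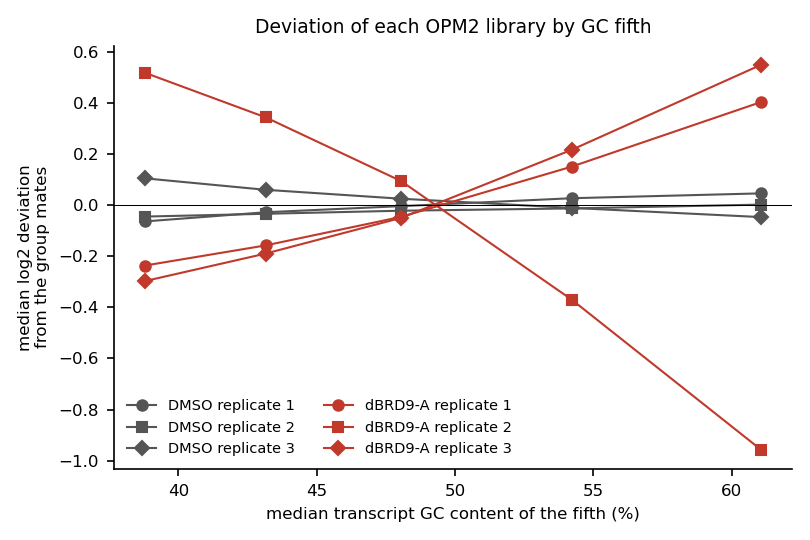
Median log2 deviation of each OPM2 library from the other libraries of its group (y axis), in 5 equal groups of genes ordered by transcript GC content (x axis, median GC content in percent); 1 line per library. The line of dBRD9-A replicate 2 runs from 0.52 down to -0.958, and the DMSO lines stay between -0.063 and 0.106.

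With all libraries, 1652 of 16408 genes rose (10.1%) and 1205 fell (7.34%) by edgeR's adjusted p. Of those, 783 that rose and 242 that fell did so at least 2-fold and were called also without dBRD9-A replicate 2. Without that library, 2686 of 16653 genes rose (16.1%) and 2591 fell (15.6%). No gene was called in opposite directions in the 2 fits, and 1587 higher and 1203 lower calls were shared. A further 65 higher and 2 lower calls needed replicate 2, and 1065 higher and 1386 lower calls among the same 16408 genes appeared only without it. The genes called higher only without it had a median GC content of 57.22%, and those called lower only without it 46.27%, against 49.69% for all genes tested. Among the calls with all libraries, the groups did not overlap for 1587 of the 1652 higher and 1204 of the 1205 lower. Scaled by library size alone, 69.4% of the calls were higher, against 57.8% with TMM. The total of 2857 calls became 1529, 1381 and 1489 when DMSO replicates 1, 2 and 3 were left out in turn, and 5277 without dBRD9-A replicate 2. Changed genes named below, unless marked, were called with any 1 of the 6 OPM2 libraries left out. A stricter case is a fit of the 6 OPM2 libraries alone, with 4 residual degrees of freedom, in which 51 of the genes named as changed were not called: ABCC1, ACTL6A, ARID1A, ATP5G1, BCL2L2, BCL7A, CCT3, CDC25A, CDC6, CDKN2B, DDX58, DST, EARS2, EIF2AK2, EIF4A1, ERBB3, ETV4, FARSA, FGFR3, GABARAPL1, GADD45A, HYOU1, IRF9, ITGA7, ITGA8, ITGB1, KLF4, MCL1, MCM6, MRPS2, MXD1, MXD4, MYCL, PARP1, PDCD4, PDIA4, PDIA5, PHLDA1, POU2F2, PRMT1, PTPN6, PVRL2, RFC3, SLC7A5, SLC7A7, SNHG1, STAT2, STAT3, TRIB3, TRIM14 and WIPI1. Over all genes, 863 of the 2770 calls tested again in the fit of the OPM2 libraries alone were kept. The shares of 10.1% higher and 7.34% lower are the background for every count of list members with all libraries, and 16.1% and 15.6% for the counts without replicate 2. With 1 other library left out, 841 to 2169 genes rose and 540 to 1552 fell, of 16621 to 16704 tested. The ranges given for lists with 1 other library left out stand against that background, not against 10.1% and 7.34%. BRD7, PDCD4, PHB, PRMT5, TRAP1 and WIPI1 share over 25% of their exon bases with a gene on the opposite strand in the current annotation, so part of their reads may belong to it if the counting ignored strand. CD68, EIF4A1, IPO4 and IRF9 share over 25% with a gene model on the same strand, including readthrough models, which strand cannot separate.

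**Figure D2:**
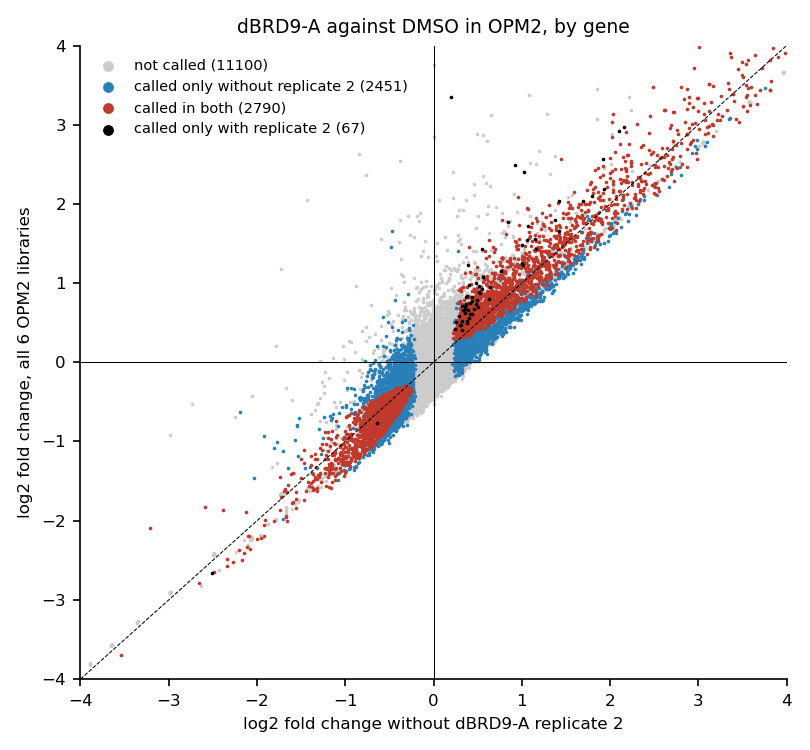
Log2 change of each gene without dBRD9-A replicate 2 (x axis) and with all OPM2 libraries (y axis), coloured by where the gene was called; the dashed line marks equal values and genes beyond 4 on either axis are not drawn. Each of the 2790 genes called in both fits has the same sign on both axes, and the 2451 called only without replicate 2 have a colour of their own.

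BRD9 mRNA itself had 89.2, 86.0 and 93.9 CPM with DMSO and 67.1, 80.9 and 81.1 CPM with dBRD9-A, a log2 change of -0.23 ± 0.13, adjusted p = 0.241, and -0.29, adjusted p = 0.0858 without replicate 2. The levels did not overlap between groups but the difference did not pass the test, and a degrader acts on the protein, which RNA counts do not measure. CRBN, the receptor the degrader needs, differed by 0.02 ± 0.11, adjusted p = 0.925 with all libraries and -0.07, adjusted p = 0.618 without replicate 2. GLTSCR1L, which marks the non-canonical complex, had 36.8, 35.3 and 38.2 CPM with DMSO and 63.2, 82.1 and 67.5 CPM with dBRD9-A and rose (0.95 ± 0.12, adjusted p = 0.000465). Its relative GLTSCR1 was called only without replicate 2 (0.22 ± 0.16 with all libraries, 0.37, adjusted p = 0.023 without). BRD7, the bromodomain subunit of the PBAF complex, stood at 134, 137 and 131 CPM with DMSO and 126, 299.8 and 119 CPM with dBRD9-A, so that replicate 2 alone was high, and its change was 0.44 ± 0.27, adjusted p = 0.282 with all libraries and -0.14, adjusted p = 0.211 without replicate 2. Of the 28 BAF-family subunits tested, 2 rose and 2 fell (3 and 5 without replicate 2). Of all genes, 10.1% rose and 7.34% fell (16.1% and 15.6% without replicate 2). The 2 that fell, ACTL6A (-0.40 ± 0.09) and BCL7A (-0.84 ± 0.24), were not called with DMSO replicate 3 left out, nor BCL7A with any other DMSO library left out, where adjusted p reached 0.0524 and 0.107. The other one that rose besides GLTSCR1L was ARID1A, the DNA-binding subunit of canonical BAF (0.54 ± 0.15). It was not called with any 1 DMSO library left out (adjusted p up to 0.104).

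The transcription factor MYC had 284, 296 and 294 CPM with DMSO and 115, 96.6 and 134 CPM with dBRD9-A. Treated and control libraries did not overlap, and MYC fell (-1.33 ± 0.26, adjusted p = 0.00544) in the edgeR fit. Among its relatives that compete for the partner MAX, MXD4 and MXD1 moved the other way. MXD4 rose from 33.6 ± 2.93 CPM with DMSO to 71.4 ± 21.4 CPM (1.09 ± 0.19, adjusted p = 0.00312), and MXD1 rose from 4.82 ± 0.708 CPM with DMSO to 7.71 ± 0.0442 CPM (0.68 ± 0.14, adjusted p = 0.00862). MYCL, a MYC paralog at a low level, fell from 0.594 ± 0.0439 CPM with DMSO to 0.159 ± 0.138 CPM (-1.62 ± 0.42), but not with any 1 DMSO library left out (adjusted p up to 0.0716). Of 16 members of the MYC network tested, 2 rose and 2 fell (3 and 6 without dBRD9-A replicate 2, and 2 and 1 to 5 with 1 other library left out). Those shares were 12.5% each with all libraries, against 10.1% and 7.34% of all genes. Without replicate 2 they were 18.8% and 37.5%, against 16.1% and 15.6%. Both genes of the translocation fell. FGFR3, a receptor tyrosine kinase, had 2085, 2069 and 2184 CPM with DMSO and 779.6, 313 and 1049 CPM with dBRD9-A (-1.56 ± 0.31, adjusted p = 0.00553), and its lowest value was in replicate 2. It was not called in the fit of the OPM2 libraries alone (-1.57, adjusted p = 0.0756). Its change ranged from -1.955 to -1.219 with each of the 6 OPM2 libraries left out in turn. WHSC1, a histone H3 lysine 36 methyltransferase also called NSD2, had 1871, 1831 and 2087 CPM with DMSO and 1185, 1088 and 1326 CPM with dBRD9-A (-0.69 ± 0.11, adjusted p = 0.00164).

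**Figure D3:**
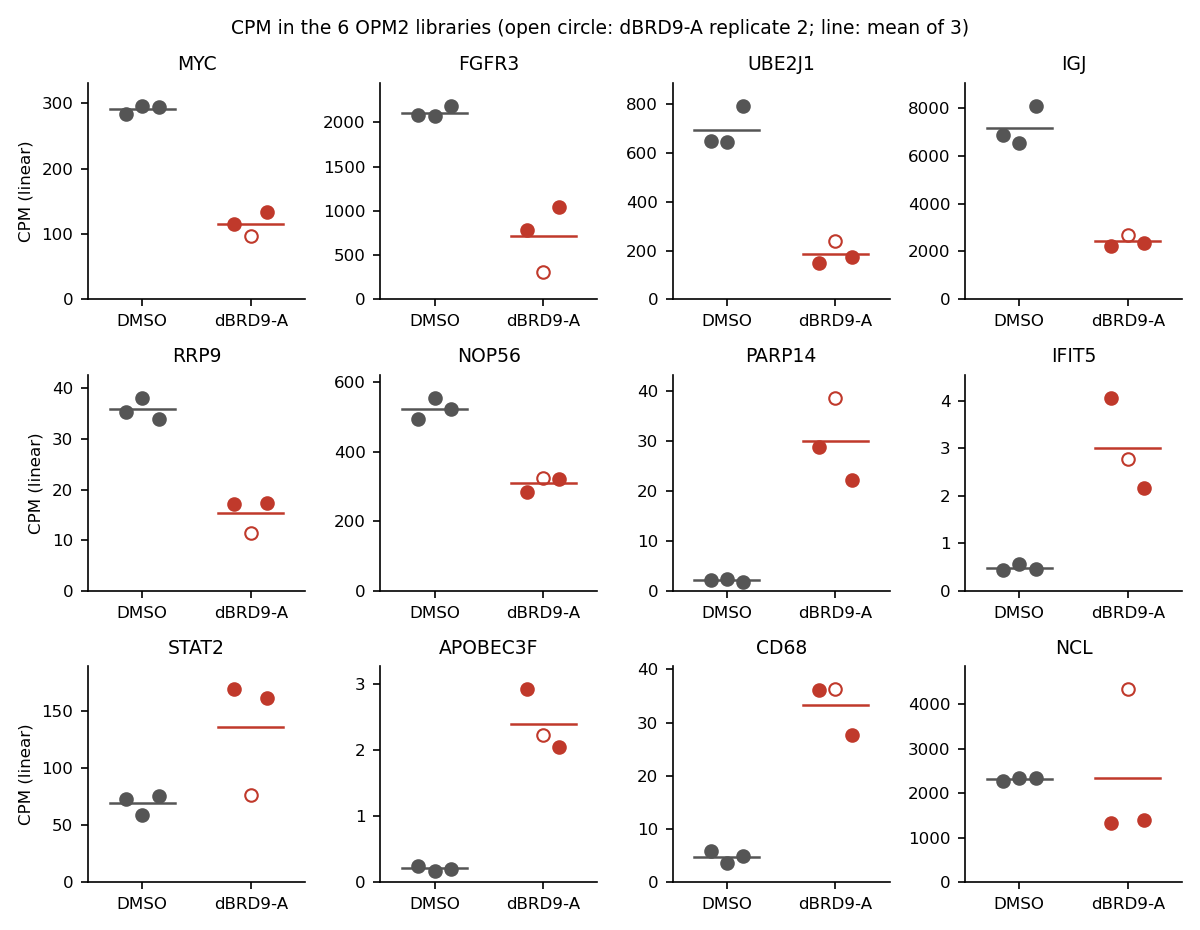
CPM on linear axes (y) for 12 genes in the 3 DMSO and 3 dBRD9-A libraries of OPM2; each point is a library, the open circle is dBRD9-A replicate 2 and the line is the mean of 3. The groups are apart for MYC, FGFR3, UBE2J1, IGJ, RRP9, NOP56, PARP14, IFIT5, APOBEC3F and CD68, by little for STAT2, and not for NCL, where replicate 2 is the highest library.

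The lower end of the changes held genes of several roles. The lowest was UNC13C, of a family that primes vesicles for secretion, with 34.6, 30.1 and 45.4 CPM with DMSO and 5.18, 4.13 and 6.54 CPM with dBRD9-A (-2.78 ± 0.20, adjusted p = 1.0321e-05). FJX1, of the four-jointed family, went from 12.5 ± 1.45 CPM with DMSO to 1.93 ± 0.595 CPM (-2.65 ± 0.32), and OAF from 10.6 ± 0.817 CPM with DMSO to 1.85 ± 0.473 CPM (-2.48 ± 0.20). ABCG2, a drug efflux pump, had 8.01, 6.18 and 9.90 CPM with DMSO and 1.57, 1.05 and 1.93 CPM with dBRD9-A (-2.36 ± 0.23, adjusted p = 7.1013e-05). UBE2J1, the membrane-bound ubiquitin-conjugating enzyme of ER-associated degradation, had 649, 645 and 791 CPM with DMSO and 150.1, 239 and 172 CPM with dBRD9-A (-1.89 ± 0.16, adjusted p = 2.9836e-05). The rest included MFSD2A, a carrier of lysophospholipids (-2.19 ± 0.19), ABHD6, a monoacylglycerol hydrolase (-2.06 ± 0.17), PGM1, which links glycogen to glycolysis (-1.86 ± 0.14), and PORCN, which acylates Wnt proteins (-1.78 ± 0.18). RGS16, a brake on G protein signalling, differed by -1.62 ± 0.25 and NLRP11 by -1.73 ± 0.21. Groups that do not overlap were a condition of the rule that chose these genes.

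At the upper end, PARP14, a mono-ADP-ribosyltransferase, had 2.28, 2.41 and 1.86 CPM with DMSO and 28.8, 38.6 and 22.1 CPM with dBRD9-A (3.77 ± 0.24, adjusted p = 1.0172e-05). ANK1, the ankyrin of the membrane skeleton, rose from 0.602 ± 0.0512 CPM with DMSO to 7.92 ± 1.44 CPM (3.72 ± 0.27). CD68, a lysosomal membrane glycoprotein, rose from 4.82 ± 1.14 CPM with DMSO to 33.3 ± 4.93 CPM (2.79 ± 0.19, adjusted p = 1.0172e-05). Genes of cell contact and the actin skeleton were among the rest, including LAMB3, a laminin chain (2.89 ± 0.47, 2.23 without dBRD9-A replicate 1), KRT80, a keratin (3.004 ± 0.38), GSN, the filament-severing protein gelsolin (2.60 ± 0.32), and CORO1B, a coronin (2.53 ± 0.19). The treated libraries were far apart for some of these. CEACAM1, an adhesion receptor, had 1.45, 1.47 and 0.766 CPM with DMSO and 10.2, 18.6 and 3.34 CPM with dBRD9-A, with the highest value in replicate 2, and its change fell from 3.11 with all libraries to 2.45, adjusted p = 0.00191 without it. NCAM2, a neural adhesion molecule, had 1.43, 1.73 and 0.727 CPM with DMSO and 10.00, 29.1 and 4.56 CPM with dBRD9-A. Its change was 3.47 ± 0.68 with all libraries and 2.48, adjusted p = 0.000464 without replicate 2, and with DMSO replicate 3 left out it was not called (adjusted p = 0.0511). LGALS3BP, a secreted galectin-binding protein, had 0.0943, 0.0137 and 0.0389 CPM with DMSO and 8.93, 4.46 and 4.18 CPM with dBRD9-A. Its DMSO level rests on few reads, so the fitted change of 6.91 ± 0.49 depends on the prior count, and was 7.67 without DMSO replicate 1.

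Ribosomes are built in the nucleolus, where RNA polymerase I transcribes ribosomal RNA, small nucleolar RNPs modify it, and processing and assembly factors turn it into the subunits. Of 111 genes of these steps, 58 fell and 1 rose with all libraries, and 99 fell and 1 rose without replicate 2. The median change was -0.52 with all libraries and -0.60 without replicate 2, against 0.03 and 0.00 for all genes tested. By step, 6 of 14 genes of the nucleolar scaffold and ribosomal RNA transcription fell (9 without dBRD9-A replicate 2, 4 to 6 with 1 other library left out), 8 of 11 small nucleolar RNP core genes (10 without dBRD9-A replicate 2, 4 to 6 with 1 other library left out), 21 of 40 of the small subunit processome (37 without dBRD9-A replicate 2, 13 to 18 with 1 other library left out) and 23 of 46 of large subunit assembly (43 without dBRD9-A replicate 2, 14 to 21 with 1 other library left out).

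POLR1B, the second largest subunit of RNA polymerase I, had 72.0, 74.8 and 73.9 CPM with DMSO and 35.9, 37.0 and 41.5 CPM with dBRD9-A (-0.95 ± 0.16, adjusted p = 0.00265). TCOF1, the nucleolar treacle protein, fell from 154 ± 1.93 CPM with DMSO to 86.0 ± 17.5 CPM (-0.84 ± 0.14). NOP56, a core protein of box C/D small nucleolar RNPs, had 495, 555 and 522 CPM with DMSO and 285, 325 and 320.2 CPM with dBRD9-A (-0.76 ± 0.15, adjusted p = 0.00609), and FBL, the methyltransferase fibrillarin of the same particles, had 362, 398 and 374 CPM with DMSO and 269.6, 224 and 238 CPM with dBRD9-A (-0.63 ± 0.11, adjusted p = 0.00312). FBL was not called after the GC trend of each library was removed (adjusted p = 0.0528). RRP9, which binds the U3 small nucleolar RNA of the small subunit processome, had 35.4, 38.2 and 34.01 CPM with DMSO and 17.2, 11.4 and 17.5 CPM with dBRD9-A (-1.22 ± 0.19, adjusted p = 0.0014). The groups did not overlap for any of these genes, as for nearly all genes called lower. BYSL, a late small subunit factor (-0.87 ± 0.15), PES1 of the PeBoW complex (-0.70 ± 0.12) and MRTO4 of large subunit assembly (-0.90 ± 0.15) fell by amounts in the same range. The 1 member that rose was UTP3, with 410.2, 400.5 and 427 CPM with DMSO and 734, 1298 and 703 CPM with dBRD9-A (1.14 ± 0.20, adjusted p = 0.00274). Its highest value was in replicate 2, and it rose without that library too (0.79, adjusted p = 1.6311e-05). Of 16 host genes of small nucleolar RNAs, 6 fell (9 without dBRD9-A replicate 2, 1 to 6 with 1 other library left out), among them SNHG1 (-0.67 ± 0.14).

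MYC with MAX binds the E-box CACGTG. Promoters of RRP9 and FBL, from RefSeq on GRCh38.p14, are shown because each holds this motif near its start. Each stretch runs from 100 bases before the transcription start to 20 after it, 5′ to 3′ on the gene's strand, with the motif in capitals.
RRP9, chr3:51941885-51942004, minus strand: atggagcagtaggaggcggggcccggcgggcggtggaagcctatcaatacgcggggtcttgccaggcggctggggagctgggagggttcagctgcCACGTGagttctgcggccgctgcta
FBL, chr19:39846360-39846479, minus strand: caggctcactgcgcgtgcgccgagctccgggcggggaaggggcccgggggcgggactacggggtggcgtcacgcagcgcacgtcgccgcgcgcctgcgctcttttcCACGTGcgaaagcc
In windows of 300 bases (250 before the start to 50 after it), CACGTG, which reads the same on both strands, was in 18 of 48 ribosome biogenesis genes that fell in both fits (37.5%) and in 14 of 45 of the others tested (31.1%). It was in 12.3% of all tested genes with a promoter in the table and in 7.26% of all 35116 windows. A match is a stretch of letters and does not show binding.

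Part of the translation machinery fell. Of 23 cytosolic aminoacyl-tRNA synthetases and partners, 10 fell (12 without dBRD9-A replicate 2, 5 to 11 with 1 other library left out) and none rose. IARS, which charges isoleucine tRNA, had 417, 403 and 436 CPM with DMSO and 257, 284 and 296 CPM with dBRD9-A (-0.59 ± 0.11, adjusted p = 0.00355). WARS, its tryptophan counterpart, differed by -0.58 ± 0.10 and FARSA, a phenylalanine synthetase subunit, by -0.88 ± 0.18. Of 44 initiation factors and regulators, 6 fell (22 without dBRD9-A replicate 2, 1 to 8 with 1 other library left out) and 1 rose. With all libraries the share that fell was 13.6%, against 7.34% of all genes. The helicase EIF4A1 fell from 782 ± 4.77 CPM with DMSO to 527 ± 71.0 CPM (-0.57 ± 0.12). PDCD4, an inhibitor that binds this helicase, was the 1 that rose, with 16.7, 15.3 and 15.2 CPM with DMSO and 31.2, 45.2 and 23.6 CPM with dBRD9-A (1.08 ± 0.22, adjusted p = 0.00645). Of 16 mitochondrial synthetases, 4 fell (7 without dBRD9-A replicate 2, 3 to 5 with 1 other library left out), among them EARS2, which charges glutamate tRNA (-0.51 ± 0.11).
Mitochondria import most of their proteins and make a few on their own ribosomes. Of 36 import and chaperone genes, 20 fell (27 without dBRD9-A replicate 2, 10 to 17 with 1 other library left out) and none rose. TRAP1, the mitochondrial HSP90, had 296, 296 and 271 CPM with DMSO and 168, 160.0 and 175 CPM with dBRD9-A (-0.78 ± 0.10, adjusted p = 0.000532). The prohibitins PHB2 (-0.76 ± 0.14) and PHB (-0.83 ± 0.14), the receptor TOMM22 (-0.70 ± 0.13) and the nucleotide exchange factor GRPEL1 (-0.68 ± 0.13) fell as well. Of 77 mitochondrial ribosomal proteins, 16 fell (46 without dBRD9-A replicate 2, 5 to 15 with 1 other library left out), including MRPL17 (-0.67 ± 0.11) and MRPS2 (-0.99 ± 0.21). Of 77 oxidative phosphorylation genes, 10 fell and 1 rose with all libraries, and 23 fell and 1 rose without replicate 2. By complex, in complex I 2 of 38 fell (8 without dBRD9-A replicate 2, 0 to 2 with 1 other library left out), and in complexes II to V 8 of 39 (15 without dBRD9-A replicate 2, 3 to 9 with 1 other library left out). With all libraries those shares were 5.26% and 20.5%, against 7.34% of all genes. CYCS, cytochrome c, had 377, 399 and 397 CPM with DMSO and 239, 254 and 218 CPM with dBRD9-A (-0.72 ± 0.10, adjusted p = 0.000799), and the ATP synthase ring gene ATP5G1 fell (-0.94 ± 0.20, adjusted p = 0.00877).

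Of 15 purine synthesis genes, 9 fell (12 without dBRD9-A replicate 2, 5 to 8 with 1 other library left out). They included PPAT, which catalyses the committed step of the pathway (-0.60 ± 0.13), PAICS (-0.61 ± 0.11) and IMPDH2, the entry to guanine nucleotides, which had 442, 477 and 428 CPM with DMSO and 287, 296 and 289.8 CPM with dBRD9-A (-0.63 ± 0.11, adjusted p = 0.00272). Of 15 pyrimidine genes 6 fell (6 without dBRD9-A replicate 2, 1 to 6 with 1 other library left out), among them the salvage kinase UCK2 (-0.69 ± 0.14). One-carbon and serine genes fell in 6 of 15 (8 without dBRD9-A replicate 2, 2 to 7 with 1 other library left out), with the folate enzymes MTHFD1L (-0.80 ± 0.13) and MTHFD1 (-0.60 ± 0.10) among them. In polyamine synthesis 2 of 15 genes fell (3 without dBRD9-A replicate 2, 1 to 2 with 1 other library left out), 13.3% against 7.34% of all genes. SRM, spermidine synthase, had 234, 249.9 and 228 CPM with DMSO and 102, 99.8 and 133 CPM with dBRD9-A (-1.09 ± 0.15, adjusted p = 0.000665). ODC1, the first enzyme of the pathway, fell (-0.67 ± 0.16, adjusted p = 0.0147), but not with DMSO replicate 2 left out (adjusted p = 0.0512).

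Amino acid transporters moved in both directions: of 25 tested, 7 fell (11 without dBRD9-A replicate 2, 4 to 11 with 1 other library left out) and 3 rose (4 without dBRD9-A replicate 2, 2 to 4 with 1 other library left out). SLC38A5, a glutamine carrier, had 268, 318 and 278 CPM with DMSO and 109, 90.3 and 128 CPM with dBRD9-A (-1.40 ± 0.15, adjusted p = 0.000132). SLC7A5, the large neutral amino acid carrier LAT1, had 698, 636 and 676 CPM with DMSO and 291, 137 and 402 CPM with dBRD9-A (-1.27 ± 0.28, adjusted p = 0.01), with its lowest value in replicate 2. Its change ranged from -1.648 to -0.961 with each of the 6 OPM2 libraries left out in turn. The related light chains SLC7A8 and SLC7A7 rose, from 5.69 ± 1.04 CPM with DMSO to 15.7 ± 3.78 CPM (1.47 ± 0.19) and from 6.97 ± 1.16 CPM with DMSO to 16.4 ± 6.59 CPM (1.24 ± 0.25). Of 23 cholesterol synthesis and uptake genes, 9 fell (12 without dBRD9-A replicate 2, 3 to 11 with 1 other library left out) and none rose. INSIG1, an ER sensor of sterols, had 315, 204 and 364 CPM with DMSO and 117, 104 and 156 CPM with dBRD9-A (-1.23 ± 0.21, adjusted p = 0.00235), with a wide spread in the DMSO libraries. SCD, which desaturates fatty acids, fell from 962 ± 62.8 CPM with DMSO to 438 ± 87.7 CPM (-1.13 ± 0.16).

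Of 30 nucleoporins 5 fell (15 without dBRD9-A replicate 2, 3 to 9 with 1 other library left out), and of 29 transport receptors and Ran genes 6 (16 without dBRD9-A replicate 2, 2 to 6 with 1 other library left out), with NUP93 (-0.62 ± 0.12) and IPO4 (-0.90 ± 0.15) among them. With all libraries those shares were 16.7% and 20.7%, against 7.34% of all genes. Cytosolic chaperones fell in 9 of 38 (24 without dBRD9-A replicate 2, 3 to 7 with 1 other library left out) and rose in 2. The HSP90 co-chaperone FKBP4 had 276, 325 and 233 CPM with DMSO and 147, 137 and 141 CPM with dBRD9-A (-0.97 ± 0.12, adjusted p = 0.000376), and CCT3, a subunit of the TRiC chaperonin, fell (-0.60 ± 0.12, adjusted p = 0.00682). Of 41 proteasome genes, 5 fell (11 without dBRD9-A replicate 2, 0 to 4 with 1 other library left out) and none rose. The share that fell was 12.2%, against 7.34% of all genes, and 26.8% against 15.6% without replicate 2.

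**Figure D4:**
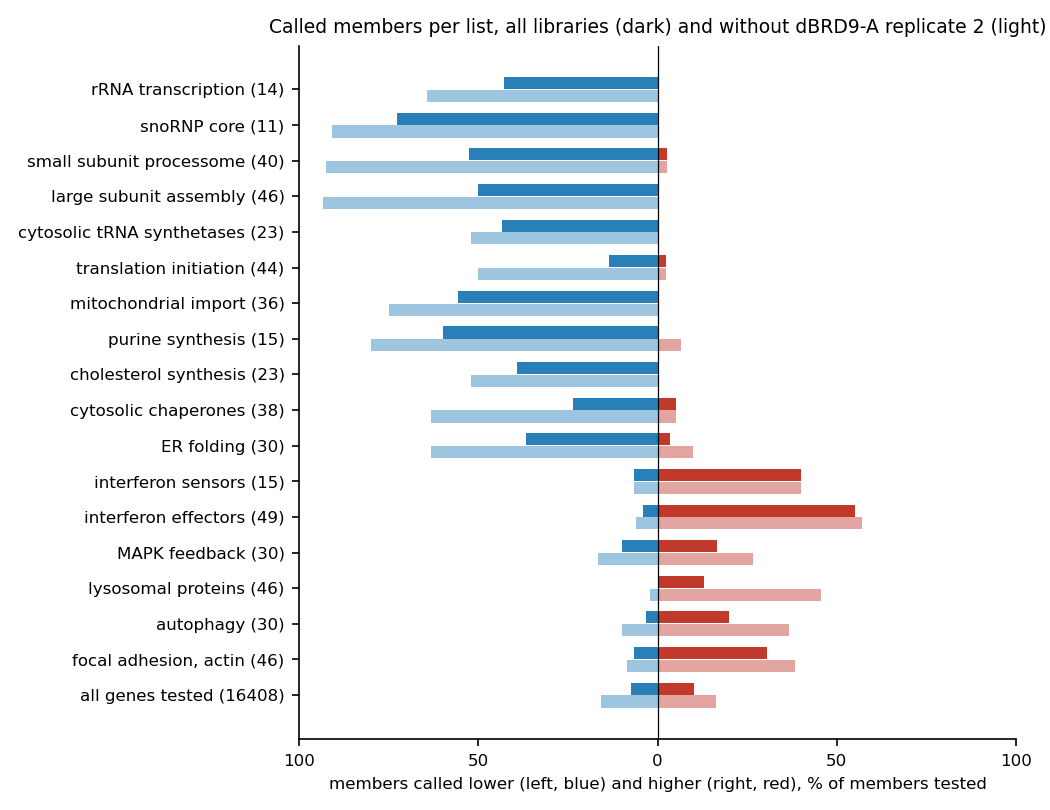
Share of the tested members of each gene list (percent, x axis) called lower (blue, to the left) and higher (red, to the right); dark bars are the fit with all libraries, light bars the fit without dBRD9-A replicate 2, and the number of genes with all libraries is in brackets. The last row gives all genes, at 7.34% lower and 10.1% higher with all libraries.

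Plasma cells fold and export antibody through the ER. Of 30 genes of ER folding and ER stress, 11 fell (19 without dBRD9-A replicate 2, 7 to 10 with 1 other library left out) and 1 rose. The chaperone CALR, calreticulin, fell from 1210.3 ± 10.3 CPM with DMSO to 836 ± 80.8 CPM (-0.53 ± 0.10, adjusted p = 0.00508), and was not called after removal of the GC trend (adjusted p = 0.0595). HYOU1, an HSP70 relative, differed by -0.65 ± 0.13, the disulfide isomerases PDIA4 and PDIA5 by -0.77 ± 0.17 and -0.62 ± 0.12, and TRIB3, a pseudokinase induced in ER stress, by -1.18 ± 0.22. Of 34 genes of the translocon, signal peptidase and glycosylation, 4 fell (12 without dBRD9-A replicate 2, 2 to 6 with 1 other library left out), among them SRPRB (-0.71 ± 0.13) and SSR3 (-0.52 ± 0.10). With all libraries that share was 11.8%, against 7.34% of all genes. In ER-associated degradation 2 of 28 rose and 3 fell (2 and 5 without dBRD9-A replicate 2, and 1 to 2 and 2 to 8 with 1 other library left out), shares of 7.14% and 10.7% with all libraries against 10.1% and 7.34% of all genes. UBE2J1 had the widest change, MARCH6, a ligase, rose (0.54 ± 0.11), and UBE2G2 fell (-0.64 ± 0.14).

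IGJ, the joining chain of secreted IgA and IgM, had 6856, 6521 and 8062 CPM with DMSO and 2244, 2696 and 2368 CPM with dBRD9-A (-1.55 ± 0.13, adjusted p = 3.111e-05). MZB1, an ER protein that assists antibody assembly, had 194, 217 and 199.8 CPM with DMSO and 73.1, 46.3 and 85.3 CPM with dBRD9-A (-1.57 ± 0.19, adjusted p = 0.000273). SLAMF7, a surface receptor of plasma cells, had 496, 455 and 454 CPM with DMSO and 164, 154 and 135 CPM with dBRD9-A (-1.63 ± 0.15, adjusted p = 4.5379e-05), and FKBP11, a secretory prolyl isomerase, fell from 69.3 ± 6.58 CPM with DMSO to 28.1 ± 6.53 CPM (-1.30 ± 0.17). Other defining markers were not called with all libraries. TNFRSF17 (BCMA) differed by -0.17 ± 0.13, adjusted p = 0.382, CD38 by 0.11 ± 0.32, adjusted p = 0.851, and PRDM1, the master factor of plasma cells, by -0.21 ± 0.15, adjusted p = 0.346. PRDM1 was called lower without replicate 2 (-0.35, adjusted p = 0.0428). SDC1 (CD138) had 1092, 904 and 1076 CPM with DMSO and 1121, 261 and 1219 CPM with dBRD9-A, low in replicate 2 alone (-0.24 ± 0.39, adjusted p = 0.708 with all libraries, 0.18, adjusted p = 0.25 without). IRF4, on which myeloma cells depend, had 1731, 1689 and 2069 CPM with DMSO and 1139.5, 1053 and 1379 CPM with dBRD9-A. The groups did not overlap, but the change did not pass the test with all libraries (-0.62 ± 0.21, adjusted p = 0.0643) or without replicate 2 (-0.55, adjusted p = 0.053). Among the edgeR fits with 1 OPM2 library left out, IRF4 was called lower only without dBRD9-A replicate 3 (adjusted p = 0.0441). XBP1, the factor of the secretory programme, was called only without replicate 2 (0.25 ± 0.10, adjusted p = 0.108 with all libraries, 0.28, adjusted p = 0.0235 without). Of 28 genes of surface and antibody assembly, 5 fell (9 without dBRD9-A replicate 2, 5 to 7 with 1 other library left out) and 1 rose. Among transcription factors, POU2F2, a B cell octamer factor, rose from 2.32 ± 0.488 CPM with DMSO to 5.69 ± 1.76 CPM (1.32 ± 0.25) and ID2, an inhibitor of E proteins, rose (0.65 ± 0.11).

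The plasma cell label was checked against defining markers. The 9 plasma cell markers summed to 11770.0 to 14100.0 CPM in the DMSO libraries and 6516 to 7589 CPM in the treated ones. IGJ was the largest part of the sum, and the other 8 summed to 5248 to 6036 CPM with DMSO and 3821 to 5221 CPM with dBRD9-A. Of 51 markers of B, T and NK cells, monocytes, red cells and platelets, fibroblasts, endothelium and epithelium, 14 had no count in any OPM2 library, including MS4A1, CD22, CD3D, HBA1, KRT19, PPBP and PF4. All 51 summed to 12.57 to 13.96 CPM with DMSO and 11.54 to 12.4 CPM with dBRD9-A, with red cell and platelet markers the largest part (6.12 to 6.96 and 4.88 to 5.91 CPM). Within that sum, B cell markers had 3.66 to 4.29 CPM with DMSO and 2.07 to 2.82 CPM with dBRD9-A, and 2 of 5 tested fell. Fibroblast, endothelial and epithelial markers had 1.29 to 1.89 CPM with DMSO and 1.85 to 2.84 CPM with dBRD9-A, and 3 of 5 tested rose. Of the 19 tested, 4 rose and 2 fell, and 6 and 3 without replicate 2.

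Cells sense foreign or displaced nucleic acid with receptors such as IFIH1, signal through interferon receptors to factors that include STAT2 and IRF9, and then make effector proteins. The interferon genes themselves were almost silent: 1 of 9 listed passed the filter on low counts, and it was not called. Of 15 sensors and adaptors, 6 rose and 1 fell (6 without dBRD9-A replicate 2, 2 to 6 with 1 other library left out for those higher). IFIH1, the sensor of long double-stranded RNA also called MDA5, had 2.45, 2.86 and 2.76 CPM with DMSO and 6.14, 8.25 and 5.99 CPM with dBRD9-A (1.32 ± 0.16, adjusted p = 0.000323). Its relative DDX58 (RIG-I) rose by 0.71 ± 0.19, adjusted p = 0.0271 and the kinase EIF2AK2 (PKR) by 0.94 ± 0.24, adjusted p = 0.0194. Neither was called with any 1 DMSO library left out, where adjusted p reached 0.108 and 0.0794. The change of EIF2AK2 ranged from 0.542 to 1.106 with each of the 6 OPM2 libraries left out in turn. ZBP1, which binds Z-form nucleic acid, had 10.3, 9.09 and 8.63 CPM with DMSO and 34.9, 26.9 and 28.9 CPM with dBRD9-A (1.70 ± 0.12, adjusted p = 1.0172e-05).

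Of 21 receptors and signal transducers, 2 rose (6 without dBRD9-A replicate 2, 0 to 2 with 1 other library left out), 9.52% against 10.1% of all genes. STAT2 had 73.4, 59.1 and 75.8 CPM with DMSO and 169.6, 77.0 and 162 CPM with dBRD9-A, so that replicate 2 was close to the DMSO libraries (0.97 ± 0.23, adjusted p = 0.0149). Without replicate 2 its change was 1.24, adjusted p = 1.9637e-06, and with DMSO replicate 2 or dBRD9-A replicate 1 left out it was not called (adjusted p up to 0.0766). IRF9, its partner, rose by 0.68 ± 0.19, adjusted p = 0.0299, but with any 1 library other than dBRD9-A replicate 2 left out it was not called (up to 0.117).

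Of 49 effectors, 27 rose and 2 fell (28 without dBRD9-A replicate 2, 18 to 26 with 1 other library left out for those higher), where 10.1% of all genes rose. The median change was 1.22 with all libraries and 1.31 without replicate 2. Most were at low levels in OPM2. IFIT3, of a family that binds RNA ends and carries tetratricopeptide repeats, had 0.927, 0.877 and 0.493 CPM with DMSO and 12.2, 19.2 and 3.47 CPM with dBRD9-A (3.91 ± 0.51, adjusted p = 0.000524), with replicate 2 the highest. IFIT5 had 0.440, 0.576 and 0.454 CPM with DMSO and 4.07, 2.78 and 2.16 CPM with dBRD9-A (2.61 ± 0.28, adjusted p = 0.000132). OAS1 and OAS2, which make the activator of RNase L, had 1.08, 0.671 and 0.649 CPM with DMSO and 4.50, 3.92 and 2.38 CPM with dBRD9-A and 0.817, 0.781 and 0.753 CPM with DMSO and 4.38, 3.66 and 4.12 CPM with dBRD9-A (2.17 ± 0.27 and 2.38 ± 0.21). NMI, an interferon-induced partner of STAT proteins, rose from 0.432 ± 0.122 CPM with DMSO to 4.08 ± 1.67 CPM (3.20 ± 0.32) and the nuclear body protein SP110 from 0.219 ± 0.0774 CPM with DMSO to 2.32 ± 1.22 CPM (3.35 ± 0.40). The 2 that fell, TRIM25 (-0.78 ± 0.13) and TRIM14 (-0.43 ± 0.13), belong to the tripartite motif family, and TRIM14 was not called with any 1 library other than dBRD9-A replicate 2 left out (adjusted p up to 0.119). Of several classic targets picked after their values were seen, MX1 had 2.80, 4.03 and 5.79 CPM with DMSO and 3.22, 5.39 and 4.80 CPM with dBRD9-A (0.07 ± 0.41, adjusted p = 0.934 with all libraries, -0.09, adjusted p = 0.908 without replicate 2), and ISG15 was below 1 CPM in all 6 libraries (0.56 ± 0.68, adjusted p = 0.603).

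In the family of ADP-ribosyltransferases and partners, 4 of 19 rose and 1 fell (5 and 1 without dBRD9-A replicate 2, and 4 to 5 and 0 to 1 with 1 other library left out). PARP14 is described above, and PARP9 had 2.67, 2.59 and 1.76 CPM with DMSO and 22.6, 34.1 and 14.7 CPM with dBRD9-A (3.34 ± 0.39, adjusted p = 0.000259). DTX3L, the ubiquitin ligase that pairs with PARP9, had 10.6, 11.4 and 7.59 CPM with DMSO and 30.8, 29.5 and 24.0 CPM with dBRD9-A (1.51 ± 0.17, adjusted p = 0.00021). PARP12 was near the detection limit, from 0.0281 ± 0.0359 CPM with DMSO to 0.236 ± 0.0971 CPM (3.11 ± 0.55), and its change was 4.80 without DMSO replicate 2 and 2.50 without DMSO replicate 3. PARP1, the abundant DNA repair enzyme, fell from 1445 ± 57.0 CPM with DMSO to 1146 ± 59.3 CPM (-0.33 ± 0.09), but not with any 1 DMSO library or dBRD9-A replicate 1 left out (adjusted p up to 0.106). Of 7 APOBEC3 cytidine deaminases, 2 rose (3 without dBRD9-A replicate 2, 1 to 2 with 1 other library left out). APOBEC3F had 0.251, 0.178 and 0.208 CPM with DMSO and 2.93, 2.23 and 2.05 CPM with dBRD9-A (3.50 ± 0.29, adjusted p = 2.4829e-05). Of 20 genes of MHC class I and peptide loading, 2 rose and 3 fell (6 and 3 without dBRD9-A replicate 2, and 1 to 3 and 1 to 2 with 1 other library left out), 10.0% and 15% against 10.1% and 7.34% of all genes. The trimming peptidase ERAP2 rose (0.92 ± 0.16). Among surface ligands, CD274 (PD-L1) had 0.487, 0.644 and 0.389 CPM with DMSO and 2.25, 2.78 and 1.46 CPM with dBRD9-A (2.07 ± 0.30, adjusted p = 0.00096), and PVRL2, also called nectin-2, rose from 0.231 ± 0.0466 CPM with DMSO to 0.822 ± 0.505 CPM (1.93 ± 0.39).

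Interferon-activated factors bind elements with 2 copies of GAAA separated by any 2 bases. Promoters of PARP14, DTX3L, IFIH1 and IFIT5 are shown because these genes rose and have this motif close to the start. They are RefSeq sequences on GRCh38.p14 from 100 bases before the start to 20 after it, 5′ to 3′ on the gene's strand, with the motif in capitals. IFIT5 holds it on the opposite strand, where it reads as TTTC copies.
PARP14, chr3:122680739-122680858, plus strand: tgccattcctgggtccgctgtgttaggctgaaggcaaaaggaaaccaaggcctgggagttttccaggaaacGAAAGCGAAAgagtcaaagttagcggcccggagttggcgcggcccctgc
DTX3L, chr3:122564238-122564357, plus strand: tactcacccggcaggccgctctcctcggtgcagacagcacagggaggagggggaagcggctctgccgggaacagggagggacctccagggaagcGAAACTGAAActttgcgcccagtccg
IFIH1, chr2:162318665-162318784, minus strand: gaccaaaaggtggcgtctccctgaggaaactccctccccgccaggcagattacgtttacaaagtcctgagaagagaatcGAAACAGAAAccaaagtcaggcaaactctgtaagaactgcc
IFIT5, chr10:89414468-89414587, plus strand: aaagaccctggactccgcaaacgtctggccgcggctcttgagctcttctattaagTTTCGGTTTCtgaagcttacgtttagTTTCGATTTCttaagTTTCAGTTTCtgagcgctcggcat
The motif of DTX3L, at chr3:122564332-122564341, is also in the window of its divergent neighbour PARP9. Searched on both strands of the 300-base windows, the motif was in 14 of 21 effectors that rose in both fits and have a window (66.7%), and in 11 of 18 of the other effectors tested (61.1%). It was in 4.11% of all tested genes with a window and in 3.57% of all windows.

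Of 10 growth factor receptors, 3 rose and 2 fell (3 and 2 without dBRD9-A replicate 2, and 2 to 3 and 2 to 3 with 1 other library left out), and 2 of those higher were called in both fits. Besides FGFR3, MET, the receptor of hepatocyte growth factor, had 2.15, 2.14 and 2.30 CPM with DMSO and 0.872, 1.05 and 0.815 CPM with dBRD9-A (-1.29 ± 0.15, adjusted p = 0.000219). These 2 were under 1 CPM with DMSO: KIT had 0.173, 0.219 and 0.0779 CPM with DMSO and 1.15, 1.64 and 0.483 CPM with dBRD9-A (2.74 ± 0.54, adjusted p = 0.00568), and ERBB3 rose from 0.0530 ± 0.0482 CPM with DMSO to 0.455 ± 0.116 CPM (3.03 ± 0.59, 3.64 without DMSO replicate 1). Of 30 feedback and output genes of MAPK signalling, 5 rose and 3 fell (8 and 5 without dBRD9-A replicate 2, and 3 to 7 and 1 to 4 with 1 other library left out), 16.7% and 10.0% against 10.1% and 7.34% of all genes. NF1, which switches RAS off, had 69.0, 58.8 and 58.6 CPM with DMSO and 115, 153 and 108 CPM with dBRD9-A (1.01 ± 0.15, adjusted p = 0.001). ETV4, an ETS factor downstream of FGF signals, fell from 7.18 ± 2.44 CPM with DMSO to 3.33 ± 0.458 CPM (-1.12 ± 0.22), but not after removal of the GC trend (adjusted p = 0.0577). PHLDA1 rose (1.24 ± 0.27), as did EPHA2, an ephrin receptor at low level (4.47 ± 0.78).

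Of 28 AP-1 and immediate early genes, 5 rose and 1 fell (7 and 4 without dBRD9-A replicate 2, and 3 to 5 and 0 to 5 with 1 other library left out). MAF, a basic leucine zipper factor active in part of myelomas, had 53.2, 48.0 and 63.7 CPM with DMSO and 111, 179.5 and 115 CPM with dBRD9-A (1.30 ± 0.20, adjusted p = 0.00152), with replicate 2 the highest. The change of MAF ranged from 1.029 to 1.416 with each of the 6 OPM2 libraries left out in turn. BATF2, an interferon-induced relative, rose from 0.127 ± 0.0854 CPM with DMSO to 1.43 ± 1.05 CPM (3.55 ± 0.58, 4.15 without DMSO replicate 1 and 2.74 without dBRD9-A replicate 1), and KLF4 from 5.87 ± 2.08 CPM with DMSO to 13.6 ± 1.88 CPM (1.21 ± 0.26). Interleukin 6 is a growth factor of myeloma that signals through STAT3, and in that list 5 of 22 genes rose and 3 fell (9 and 6 without dBRD9-A replicate 2, and 2 to 5 and 1 to 6 with 1 other library left out). STAT3 had 95.9, 94.9 and 86.7 CPM with DMSO and 162, 122 and 157 CPM with dBRD9-A (0.67 ± 0.12, adjusted p = 0.00275). LIFR, a receptor of the same cytokine family, had 112, 118 and 140.0 CPM with DMSO and 198, 233 and 216 CPM with dBRD9-A (0.80 ± 0.14, adjusted p = 0.00275), and the phosphatase PTPN6 fell (-0.59 ± 0.12), but not after removal of the GC trend (adjusted p = 0.247).

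Of 32 NF-kB genes, 3 rose and 1 fell (7 and 1 without dBRD9-A replicate 2, and 2 to 4 and 1 to 2 with 1 other library left out), 9.38% and 3.12% with all libraries, at or below the shares of all genes. TRAF3, which restrains the non-canonical pathway and is often lost in myeloma, had 40.5, 42.8 and 39.2 CPM with DMSO and 22.8, 21.9 and 25.3 CPM with dBRD9-A (-0.80 ± 0.13, adjusted p = 0.00191). NFKBIZ, a nuclear IkB protein, rose from 4.06 ± 0.533 CPM with DMSO to 9.38 ± 2.16 CPM (1.22 ± 0.18). In the TNF superfamily 2 of 26 genes rose and 3 fell (7 and 4 without dBRD9-A replicate 2, and 1 to 3 and 2 to 4 with 1 other library left out), 7.69% and 11.5% with all libraries against 10.1% and 7.34% of all genes. LTBR, the lymphotoxin beta receptor, had 2.42, 2.15 and 1.76 CPM with DMSO and 8.03, 5.01 and 6.11 CPM with dBRD9-A (1.60 ± 0.25, adjusted p = 0.00438). TNFRSF21, death receptor 6, had 29.5, 27.2 and 26.9 CPM with DMSO and 11.8, 8.63 and 13.0 CPM with dBRD9-A (-1.32 ± 0.21, adjusted p = 0.00175), and TNFRSF1B, TNF receptor type II, fell (-0.78 ± 0.14).

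Of 50 replication genes, 14 fell (28 without dBRD9-A replicate 2, 5 to 21 with 1 other library left out) and none rose. The replication helicase gene MCM4 had 644, 704 and 711 CPM with DMSO and 446, 433 and 502 CPM with dBRD9-A (-0.57 ± 0.10, adjusted p = 0.00326). MCM10 differed by -0.69 ± 0.10, MCM6 by -0.52 ± 0.11, the loading factor CDC6 by -0.52 ± 0.11, and RFC3 of the clamp loader by -0.48 ± 0.10. Of 47 mitosis genes, 1 rose and 1 fell (2 and 2 without dBRD9-A replicate 2, and 0 to 11 and 0 to 2 with 1 other library left out). The number higher was 11 in 1 of those leave-outs, that of dBRD9-A replicate 3, 6 after removal of the GC trend and 7 with scaling by library size alone. Among G1 regulators 4 of 28 rose and 5 fell (6 and 7 without dBRD9-A replicate 2, and 1 to 5 and 1 to 6 with 1 other library left out). CDC25A, the phosphatase that activates CDK2, had 89.6, 85.0 and 90.4 CPM with DMSO and 54.3, 33.6 and 56.9 CPM with dBRD9-A (-0.87 ± 0.17, adjusted p = 0.00544), and CDKN2B, the CDK4 and CDK6 inhibitor p15, had 5.95, 4.41 and 8.03 CPM with DMSO and 10.00, 12.8 and 11.6 CPM with dBRD9-A (0.90 ± 0.20, adjusted p = 0.0109).

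Of 19 BCL2 family genes, 4 rose and 1 fell (5 and 1 without dBRD9-A replicate 2, and 3 to 4 and 0 to 1 with 1 other library left out). With all libraries those shares were 21.1% and 5.26%, against 10.1% and 7.34% of all genes. BMF, a BH3-only protein that promotes apoptosis, had 42.8, 55.8 and 43.1 CPM with DMSO and 169, 112 and 151 CPM with dBRD9-A (1.61 ± 0.15, adjusted p = 6.5407e-05). BCL2L2, a protective member also called BCL-W, rose (0.74 ± 0.14), as did BNIP3L, a receptor of mitophagy (1.34 ± 0.27). MCL1, the survival protein of myeloma, had 411, 395 and 409 CPM with DMSO and 584, 523 and 535 CPM with dBRD9-A (0.43 ± 0.12, adjusted p = 0.0311), but with any 1 DMSO library or dBRD9-A replicate 1 left out it was not called (up to 0.112). In 33 p53 targets and regulators, 4 rose and 3 fell (6 and 4 without dBRD9-A replicate 2, and 2 to 4 and 1 to 4 with 1 other library left out), 12.1% and 9.09% against 10.1% and 7.34% of all genes. CCNG2, an atypical cyclin of resting cells, had 8.03, 6.08 and 7.72 CPM with DMSO and 23.9, 25.2 and 18.3 CPM with dBRD9-A (1.63 ± 0.23, adjusted p = 0.000931), and GADD45A rose (1.16 ± 0.23). AEN, an exonuclease induced by p53, fell from 58.1 ± 2.18 CPM with DMSO to 24.5 ± 7.39 CPM (-1.24 ± 0.22).

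Among histone-modifying enzymes, 6 of 30 methyltransferases fell (12 without dBRD9-A replicate 2, 4 to 9 with 1 other library left out) and 1 rose. Besides WHSC1, the arginine methyltransferases PRMT5 and PRMT1 fell (-0.60 ± 0.11 and -0.88 ± 0.20), and PRMT2 rose from 18.9 ± 1.03 CPM with DMSO to 33.2 ± 1.90 CPM (0.81 ± 0.12, adjusted p = 0.00109). KAT2B, the acetyltransferase PCAF, had 46.6, 40.7 and 58.8 CPM with DMSO and 75.4, 92.2 and 83.9 CPM with dBRD9-A (0.78 ± 0.14, adjusted p = 0.00358). Of 30 replication-dependent histone genes 3 rose (6 without dBRD9-A replicate 2, 1 to 5 with 1 other library left out), among them HIST1H3H (1.22 ± 0.25), and none fell. The 10.0% that rose compares with 10.1% of all genes, and the 18.8% without replicate 2 with 16.1%. Most of these transcripts lack a poly(A) tail, and the libraries were made from poly(A) mRNA.

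Lysosomes break down what autophagy delivers. Of 46 lysosomal genes, 6 rose (21 without dBRD9-A replicate 2, 3 to 7 with 1 other library left out) and none fell, and of 30 autophagy genes 6 rose (11 without dBRD9-A replicate 2, 5 to 8 with 1 other library left out) and 1 fell. SCARB2, a lysosomal membrane protein, had 522, 439.9 and 566 CPM with DMSO and 889, 856 and 753 CPM with dBRD9-A (0.71 ± 0.13, adjusted p = 0.00315). OPTN, optineurin, an autophagy receptor, had 16.7, 12.2 and 15.4 CPM with DMSO and 49.97, 60.7 and 41.0 CPM with dBRD9-A (1.77 ± 0.17, adjusted p = 7.0087e-05). The receptor NBR1 (0.67 ± 0.12) and the phagophore proteins MAP1LC3B (0.59 ± 0.10), GABARAPL1 (0.78 ± 0.14) and WIPI1 (0.59 ± 0.12) rose as well. The count of risen lysosomal genes was 21 without replicate 2 and 15 after the GC trend of each library was removed. Of ABC transporters, 1 of 23 rose and 5 fell (4 and 6 without dBRD9-A replicate 2, and 1 to 2 and 3 to 5 with 1 other library left out), with ABCC1 (-0.84 ± 0.16) besides ABCG2 among those that fell and the cholesterol exporter ABCA1 (1.17 ± 0.23) the one that rose. With all libraries those shares were 4.35% and 21.7%, against 10.1% and 7.34% of all genes.

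Of 46 focal adhesion and actin genes, 14 rose (18 without dBRD9-A replicate 2, 5 to 12 with 1 other library left out) and 3 fell (4 without dBRD9-A replicate 2, 0 to 3 with 1 other library left out). VCL, vinculin, which couples integrins to actin, had 57.6, 56.9 and 59.7 CPM with DMSO and 110.4, 116 and 113 CPM with dBRD9-A (0.96 ± 0.09, adjusted p = 4.8411e-05). MYH9, non-muscle myosin, had 645, 523 and 628 CPM with DMSO and 989, 1066 and 1098 CPM with dBRD9-A (0.81 ± 0.11, adjusted p = 0.000568). FERMT2, kindlin 2, an integrin activator, rose from 14.4 ± 1.94 CPM with DMSO to 33.3 ± 8.99 CPM (1.202 ± 0.19), and TNS1, tensin, from 0.857 ± 0.297 CPM with DMSO to 4.44 ± 2.64 CPM (2.41 ± 0.39). Of 22 integrins, 4 rose and 2 fell (7 and 3 without dBRD9-A replicate 2, and 2 to 3 and 2 with 1 other library left out). With all libraries those shares were 18.2% and 9.09%, against 10.1% and 7.34% of all genes. ITGB1, the common beta 1 chain, had 204, 189.8 and 206 CPM with DMSO and 329.7, 566 and 284 CPM with dBRD9-A (0.98 ± 0.22, adjusted p = 0.0105), with replicate 2 the highest. ITGA3 and ITGA8 fell, from 9.16 ± 0.730 CPM with DMSO to 3.22 ± 0.846 CPM (-1.48 ± 0.18) and from 3.19 ± 0.927 CPM with DMSO to 0.883 ± 0.522 CPM (-1.76 ± 0.32, -2.39 without dBRD9-A replicate 3), while ITGA7 rose (2.14 ± 0.41). Matrix genes rose in 5 of 25 (11 without dBRD9-A replicate 2, 4 to 7 with 1 other library left out) and fell in 1. FN1, fibronectin, had 17.7, 12.8 and 16.6 CPM with DMSO and 67.3, 57.6 and 57.1 CPM with dBRD9-A (1.95 ± 0.14, adjusted p = 1.0172e-05), LAMC1, a laminin chain, rose by 0.74 ± 0.12, adjusted p = 0.00162, and COL27A1, a fibrillar collagen, had 0.613, 0.315 and 0.130 CPM with DMSO and 7.85, 11.5 and 4.15 CPM with dBRD9-A (4.48 ± 0.46, adjusted p = 0.000118, and 5.11 without DMSO replicate 1). The summed fibroblast, endothelial and epithelial markers given above stood at 1.29 to 1.89 CPM with DMSO and 1.85 to 2.84 CPM with dBRD9-A, and their part in these changes was not tested.

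Some genes with many counts were called only when dBRD9-A replicate 2 was left out. NCL, nucleolin, a protein of the nucleolus, had 2278, 2349 and 2336 CPM with DMSO and 1325, 4343 and 1399.8 CPM with dBRD9-A. With all libraries its change was 0.02 ± 0.36, adjusted p = 0.984, and without replicate 2 it was -0.78, adjusted p = 0.000629. The cytosolic chaperones HSPA8, HSP90AA1 and HSP90AB1 had the same form: HSPA8 had 2406, 2839 and 2719.7 CPM with DMSO and 1453, 3131 and 1619 CPM with dBRD9-A (-0.36 ± 0.24, adjusted p = 0.311 with all libraries, -0.80, adjusted p = 0.000138 without). HSP90AA1 and HSP90AB1 were -0.59, adjusted p = 0.000567 and -0.46, adjusted p = 0.0013 without replicate 2, and -0.14 ± 0.23 and -0.22 ± 0.15 with all libraries. PABPC1, the poly(A)-binding protein, went from 0.17 ± 0.26 to -0.37, adjusted p = 0.00494. In the other direction, ITM2C had 845, 669 and 976 CPM with DMSO and 1278, 467 and 1400.4 CPM with dBRD9-A, low in replicate 2 alone, with 0.34 ± 0.31 and then 0.68, adjusted p = 0.0016. NEAT1, the RNA scaffold of paraspeckles, was 0.39 ± 0.17, adjusted p = 0.135 with all libraries and 0.49, adjusted p = 0.0224 without. The reverse case was rare. DST, dystonin, a cytoskeletal linker with 349, 279 and 289.9 CPM with DMSO and 407, 739 and 387 CPM with dBRD9-A, was called with all libraries (0.74 ± 0.23, adjusted p = 0.0436) and not without replicate 2 (0.36, adjusted p = 0.0562), nor with any 1 DMSO library left out (adjusted p up to 0.148).

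The responses of the lines were compared gene by gene with an interaction term, H929 minus OPM2, and 95 of 16408 genes (0.579%) differed by edgeR's adjusted p. That number was 38, 35 and 51 with DMSO replicates 1, 2 and 3 of OPM2 left out in turn, 50 without dBRD9-A replicate 1 and 507 without dBRD9-A replicate 2. Of the 19 genes described here, 8 kept the call with any 1 of the 6 OPM2 libraries left out: ABCG2, MET, OAS2, ZBP1, APOBEC3F, CGN, TMCC3 and CD68. The others lost it without at least 1 DMSO library, and adjusted p then reached from 0.0515 (CORO1B, only without DMSO replicate 2) to 0.149 (NMI). ABCG2 fell in OPM2 (-2.36 ± 0.23) and was 0.40 ± 0.22 in H929, a difference of 2.76 ± 0.31, adjusted p = 0.00347. MET behaved likewise, with -1.29 ± 0.15 in OPM2 and 0.29 ± 0.13 in H929 (1.58 ± 0.19, adjusted p = 0.00347). GRAMD4 (-1.63 ± 0.20 and -0.25 ± 0.18), PGM1 (-1.86 ± 0.14 and -0.86 ± 0.13) and ITGA3 (-1.48 ± 0.18 and -0.22 ± 0.17) also had the larger decrease in OPM2.

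Of the 49 interferon effectors 4 differed between the lines, all with the higher response in OPM2, OAS2, NMI and LGALS3BP among them. OAS2 was 2.38 ± 0.21 in OPM2 and 0.27 ± 0.18 in H929 (-2.10 ± 0.27, adjusted p = 0.0053). Of the 15 sensors and adaptors, 1 differed with the higher response in OPM2 and 1 with the higher response in H929. The former, ZBP1, was 1.70 ± 0.12 and 0.01 ± 0.11 (-1.69 ± 0.16, adjusted p = 0.00221). NMI (3.20 ± 0.32 and 1.04 ± 0.27, difference -2.15 ± 0.42, adjusted p = 0.0428), APOBEC3F (3.50 ± 0.29 and 0.97 ± 0.21, difference -2.53 ± 0.36, adjusted p = 0.0088) and LGALS3BP (6.91 ± 0.49 and 3.03 ± 0.35, difference -3.88 ± 0.62, adjusted p = 0.0172) also had the higher response in OPM2. DTX3L went the other way, with 1.51 ± 0.17 in OPM2 and 2.75 ± 0.18 in H929 (1.24 ± 0.24, adjusted p = 0.043). Other genes with a larger rise in OPM2 were CD68 (1.19 ± 0.17 in H929), CORO1B (0.82 ± 0.18), COL27A1 (1.36 ± 0.37), PLEKHG1 (2.63 ± 0.26 and 0.47 ± 0.27), CGN, the tight junction protein cingulin (2.06 ± 0.13 and 0.19 ± 0.13), and TMCC3 (2.69 ± 0.19 and 0.67 ± 0.13). SLC7A8 rose more in H929 (2.95 ± 0.21, difference 1.48 ± 0.28, adjusted p = 0.0395). ETS1 fell in OPM2 (-0.59 ± 0.16) and rose in H929 (0.69 ± 0.16), a difference of 1.28 ± 0.23, adjusted p = 0.0308, though the OPM2 call was lost with any 1 DMSO library left out (up to 0.0945). For most genes of the lists, MYC and FGFR3 included, the difference did not pass the test, which does not show that the lines respond alike.

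**Figure D5:**
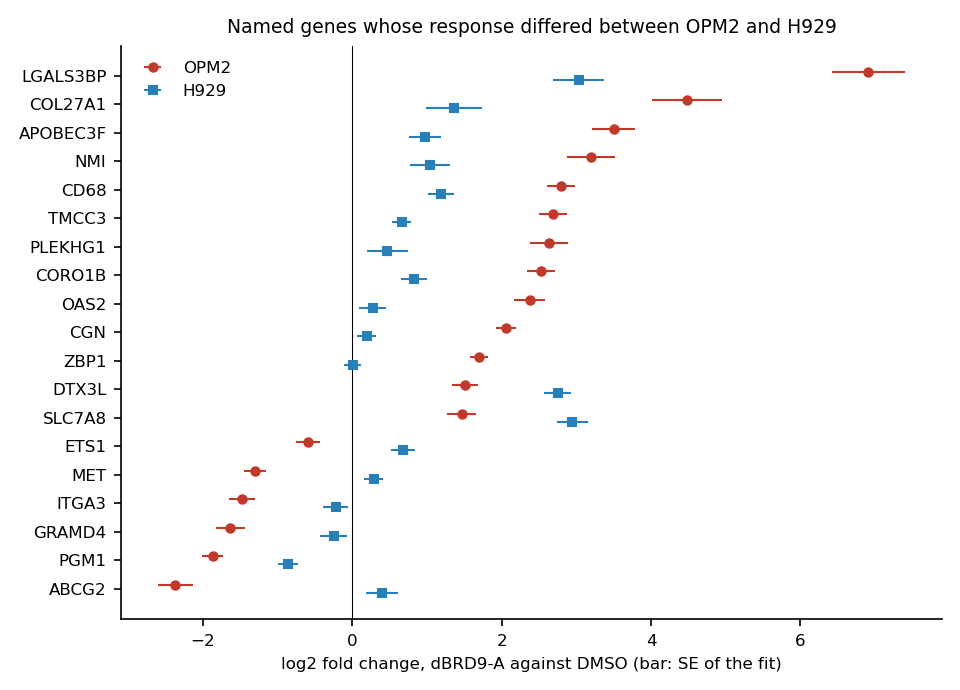
Log2 change with dBRD9-A against DMSO (x axis) in OPM2 (red circles) and H929 (blue squares) for the 19 named genes whose responses differed between the lines; bars are the SE derived from the edgeR test. LGALS3BP has the largest OPM2 value at 6.91, and ABCG2 and MET lie on opposite sides of 0 in the 2 lines.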

How the data were processed

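RNA-seq counts of 12 libraries (OPM2 and H929, dBRD9-A or DMSO, 3 each) were used. Libraries were stranded poly(A) libraries, per the labels' protocols. Reads were aligned with STAR and counted with featureCounts on hg19 (GRCh37), per the submitters' processing notes, and no source used here gives the strand setting. The authors deposited raw counts per RefSeq transcript (51780 transcripts, 25680 symbols). The FPKM and TPM columns that the authors deposited beside them were not used. The transcript with the highest mean count stood for its symbol. Genes were filtered with filterByExpr, scaled with TMM and fitted with edgeR 4.0.16 (R 4.3.3) over the 4 groups, with 8 residual degrees of freedom, since all groups share 1 spread per gene. The fit was tested on simulated data for OPM2, where 93% of 2-fold and 100% of 4-fold changes among 200 of 15997 genes were recovered. The simulated libraries had the same spread for every gene, none deviated with GC content, and genes at the lowest levels were left unchanged. These shares therefore check the code and do not describe the sensitivity of the real comparison.

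The comparison and the 40 gene lists were chosen with earlier results of these data known, so counts over the lists describe and are no independent support. Named genes are fixed genes and markers, the 15 highest and 15 lowest changes called in both fits with groups that do not overlap and a mean of at least 1 log2 CPM, the 10 smallest adjusted p in each direction, up to 6 members of each list called in both fits by smallest p, the most abundant genes called in only 1 fit, and the 5 highest and 5 lowest differences between the lines. The text takes its genes from these, and some genes that the rule gives are not reported here; MX1, ISG15, TRIM14 and TRIM25 were added after their values were seen. The alternatives tried were another normalization (RLE, library size alone), DESeq2 1.42.0, limma 3.58.1 voom with library weights, other low-count filters, removal of each library's GC trend, the sum over transcripts, a replicate block, OPM2 libraries alone and each OPM2 library left out. Count totals limit the precision of genes under about 1 CPM. Promoters come from RefSeq on GRCh38.p14, a later build than the counts used, and no coordinate of the counted features is given.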

Additional observations from a re-analysis of the deposited data

Results flagged for a closer look

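In 19 of the genes named, the response to dBRD9-A differed between H929 and OPM2 by the interaction test of edgeR (adjusted p under 0.05). Differences are given as the log2 change in H929 minus that in OPM2.

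The response was higher in H929, or the decrease smaller, for ABCG2 (2.76), MET (1.58), SLC7A8 (1.48), GRAMD4 (1.38), ETS1 (1.28), ITGA3 (1.26), DTX3L (1.24) and PGM1 (1.01).

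The response was higher in OPM2 for LGALS3BP (-3.88), COL27A1 (-3.12), APOBEC3F (-2.53), PLEKHG1 (-2.16), NMI (-2.155), OAS2 (-2.10), TMCC3 (-2.02), CGN (-1.87), CORO1B (-1.71), ZBP1 (-1.69) and CD68 (-1.60). All 19 differences were called in the fit without OPM2 dBRD9-A replicate 2.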

How the results depend on the processing

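With dBRD9-A replicate 2 or another OPM2 library left out, the number of genes higher ranged from 841 to 2686, lower from 540 to 2591, and differing between the lines from 35 to 507. With limma-voom and library weights they were 3807, 3436 and 882. After removal of each library's GC trend 2654 were higher and 230 differed between the lines, and with DESeq2 372 differed. Fitted on the OPM2 libraries alone, 551 were higher and 320 lower. The numbers under the other normalizations, filters and the sum over transcripts were within 1.5 times of those reported. The cause of these differences was not tested.

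With the replicate number as a block, 1020 were higher, 709 lower and 26 differed between the lines, with 4 residual degrees of freedom. Whether the numbers pair the samples cannot be told. Deviations of same-numbered OPM2 libraries correlated by 0.318, -0.021 and -0.146, and libraries did not all correlate best with their own number. The deviations of the treated libraries also followed GC content (Spearman correlations of 0.635, -0.70 and 0.711), so these correlations cannot decide it.

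Of 173 named genes called, 158 were called with each of the 6 OPM2 libraries left out and 117 under every one of the 16 alternatives that tested them. OPM2 libraries alone lost 51 of the calls. Across the leave-outs NCL ranged from -0.780 to 0.30 and PABPC1 from -0.367 to 0.370. NCL and PABPC1, not called with all libraries, were lower without dBRD9-A replicate 2 (-0.78 and -0.37) and with limma-voom (-0.75 and -0.34). Genes under about 1 CPM rest on few reads, most of all in the shallow dBRD9-A replicate 2.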
